A study of Bos taurus with 9 samples.

Results

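The proteasome breaks down proteins that are tagged with ubiquitin, and the genes described here encode its subunits, its activators, its inhibitor and the chaperones that help to build it. They were taken as every gene symbol in the count table made of PSM, a letter from A to G and digits only, which gave 48 of 30641 genes. Of these, 5 were set apart as immune subunits (PSMB8, PSMB9, PSMB10, PSME1 and PSME2) and compared with the other 43. The counts sufficed to test 46 of the 48, the 5 immune subunits and 41 others, among 14874 genes tested in all. PSMA8 and PSMB11 were not tested.

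RNA was sequenced in 9 libraries of bovine cells labelled as endometrial epithelial, the lining of the uterus, in 3 groups of 3. The untreated control cells received neither reagent nor RNA. The reagent alone cells were exposed 24 hours after seeding to jetMESSENGER, a carrier that brings mRNA into cells. The DPPA3 mRNA cells received the same reagent at the same time, loaded with 500 ng of in vitro transcribed mRNA for DPPA3, a protein of oocytes and early embryos. The submitters had found DPPA3 as a transcript released by cultured embryos, and asked what it does in endometrial cells. No group was given a different mRNA, so an effect of the DPPA3 sequence and an effect of any in vitro transcribed RNA cannot be told apart. The labels do not say whether the 3 libraries of a group came from separate cultures or animals, and the p-values cover only the spread between them, which may be technical.

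The core of the proteasome is a barrel of stacked rings. Alpha subunits form its outer rings, and beta subunits, some of them catalytic, form its inner rings. A regulatory particle of ATPases and non-ATPase subunits binds tagged proteins, unfolds them and feeds them into the core. In cells exposed to interferon, newly made cores can take up PSMB8, PSMB9 and PSMB10 in place of the catalytic subunits PSMB5, PSMB6 and PSMB7, and PSME1 and PSME2 form the PA28 cap. This immunoproteasome is known for making peptides that are loaded onto MHC class I molecules, and in the ruminant endometrium interferon tau from the conceptus is the signal of early pregnancy.

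Total counts ran from 3890134 (reagent alone replicate 1) to 13258036 (DPPA3 mRNA replicate 1), and the next smallest was 7258348 (untreated control replicate 1). DPPA3 itself had 126334, 213790 and 213192 counts in the transfected libraries and at most 2 in any other. Of 8 epithelial markers, the keratins KRT8 and KRT18 and the adhesion gene CDH1 were plentiful, while EPCAM and CLDN4 stayed below 2 CPM (read counts scaled to a common library size) in every library. MUC1, also on that list, ran from 0.54 to 3.87 CPM. A list of 8 stromal genes, among them COL1A1 and VIM, summed to between 27870 and 46350 CPM over the libraries, so stromal transcripts were present in all 9. Other genes of that list were low, with THY1 at 0.18 to 1.29 CPM and PDGFRB at 6.41 to 17.2 CPM. The epithelial list ran from 8587 to 11050 CPM. A list of 10 immune cell markers summed to between 5.05 and 9.79 CPM, and PTPRC, ITGAM and MS4A1 had no counts in any library. Levels are given in CPM scaled by TMM factors, so a value can be compared between libraries but not between genes.

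No subunit passed the test in any of the 3 comparisons. With edgeR's quasi-likelihood test and Benjamini-Hochberg adjustment over all genes tested, 0 of the 46 subunits had an adjusted p under 0.05 for DPPA3 mRNA against reagent alone, where 0.00672% of all genes were called (1 gene, or 2 with a replicate block). When the transfected cells were set against the untreated ones, 0 of 46 were called, beside 0.0134% of all genes (2 genes, or 7 with the block). With DPPA3 itself left out of the library sizes and the test, 0 genes were called in either of these comparisons. Between reagent alone and untreated control 0 of 46 were called, and 0% of all genes (2 genes with DESeq2 and 2 with limma voom). DESeq2 and limma voom also called 0 subunits in each comparison. At an unadjusted p under 0.05 the subunits numbered 0 of 46 in the first comparison, beside 1.67% of all genes. In the second they numbered 2, both higher (PSME1 and PSMA6), beside 3.91% of all genes (2.09% higher and 1.82% lower). In the third they numbered 2, both higher (PSMA4 and PSMD7), beside 10.2% of all genes (4.23% higher and 5.96% lower). All adjusted p-values below come from this edgeR test. The comparisons share libraries, so their values are not independent of each other.

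The fitted differences of the immune subunits nevertheless lay on one side in the transfected cells. Against reagent alone, 5 of 5 immune subunits had a log2 fold change above 0, with a median of 0.36 and a range from 0.21 to 0.68. The 41 others had a median of -0.015, with 19 above 0, and over all genes tested the median was 0.003, with 50.4% above 0. Against untreated control, 5 of 5 immune subunits were again above 0 (median 0.42, range 0.12 to 0.55), as were 35 of the 41 others (median 0.12), where all genes had a median of 0.002 and 50.2% above 0. Reagent alone against untreated control gave the reverse order, with a median of -0.08 for the immune subunits, 2 of 5 above 0, and 0.17 for the others, 29 of 41 above 0. The sign of the immune median was not stable there, since it was 0.18 without reagent alone replicate 2, 0.06 without untreated control replicate 1 and 0.02 without reagent alone replicate 1. With both smallest libraries left out it was 0.18, above the 0.05 of the others. All genes there had a median of -0.010, with 49.2% above 0. These list values are descriptions and were not tested. In bulk RNA, a difference in the number of cells that express a gene and a difference in RNA per cell cannot be told apart.

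**Figure D1:**
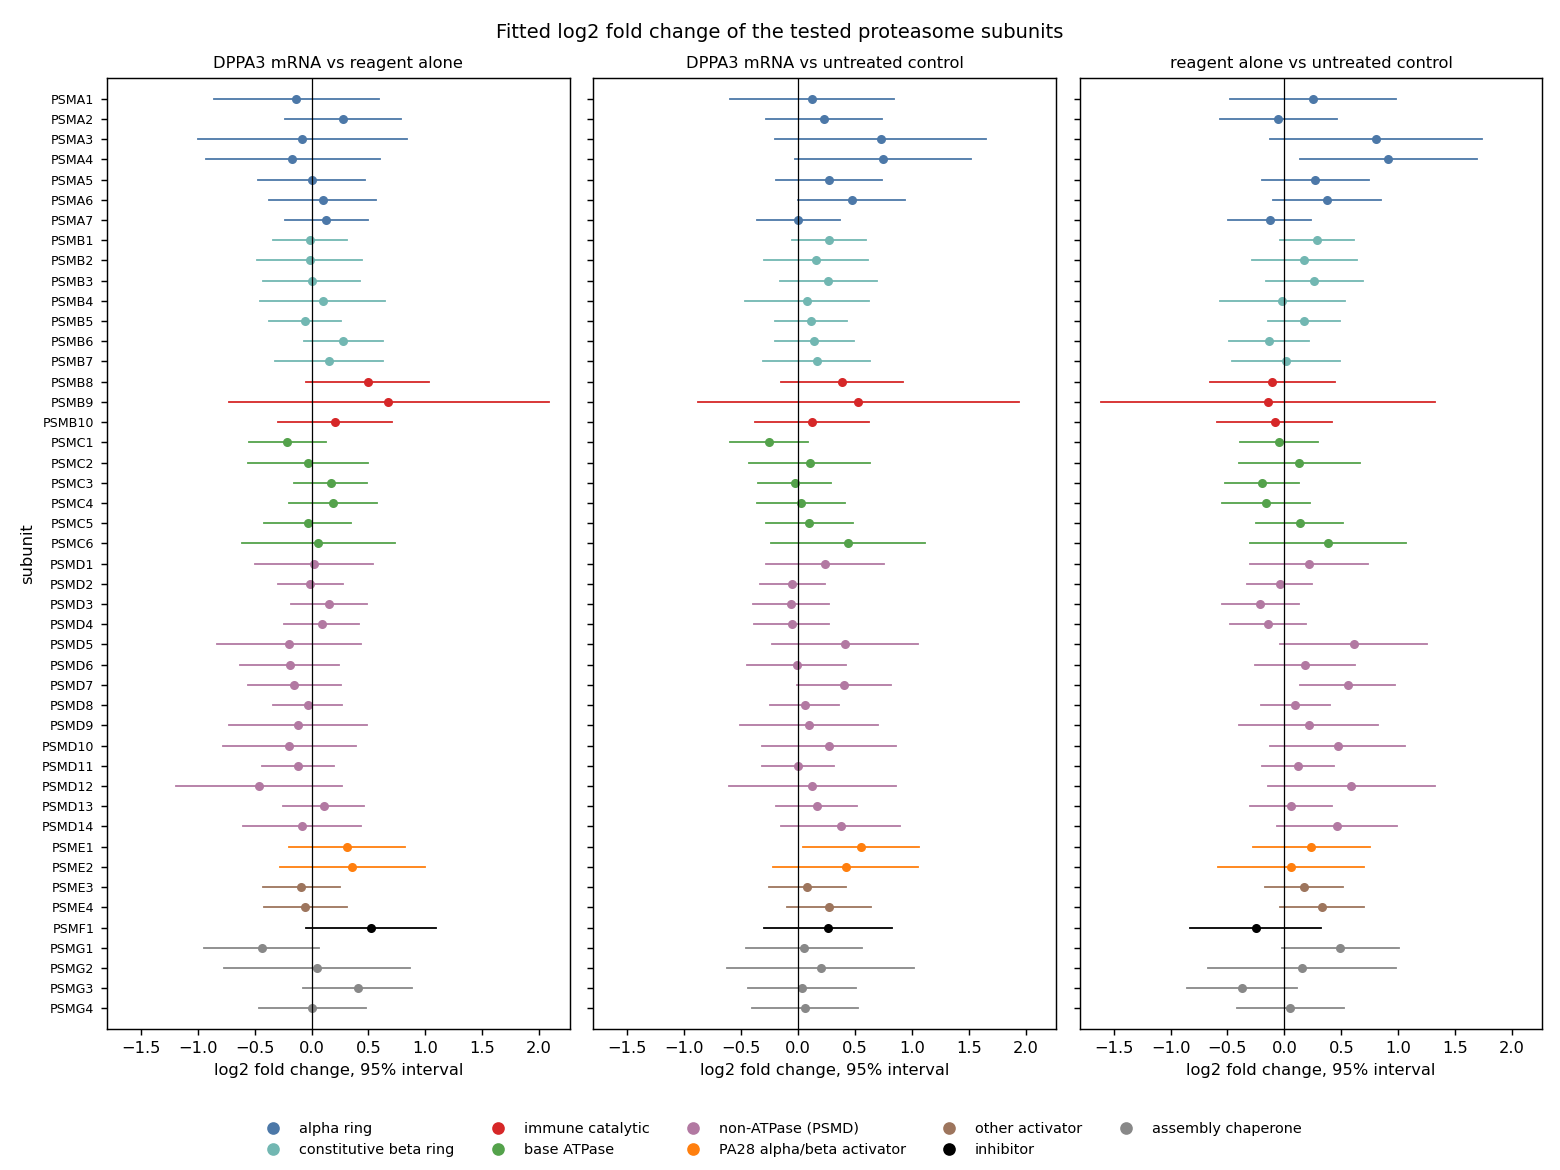
Fitted log2 fold change of each tested subunit (dot) with its 95% interval (line), in 1 panel per comparison, with subunits grouped and coloured by role and the vertical line at 0. The 5 immune subunits (red and orange) sit right of 0 in the first and second panels, with intervals that cross 0 except for PSME1 against untreated control, and no subunit passes the threshold after adjustment.

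PSMB8, the immune counterpart of PSMB5, had 32.9, 39.6 and 24.9 CPM in DPPA3 mRNA replicates 1, 2 and 3. It had 27.6, 17.7 and 24.3 CPM with reagent alone and 30.1, 18.7 and 25.7 CPM in untreated control. Each transfected library lay above its reagent alone library of the same number, as in 15.0% of all genes, and in replicate 3 by only 0.03 on the log2 scale. The groups overlapped, because reagent alone replicate 1 exceeded DPPA3 mRNA replicate 3. The log2 fold change against reagent alone was 0.49 (SE 0.25, 95% interval -0.05 to 1.03, adjusted p = 1), a fold of 1.41. It was 0.39 against untreated control (SE 0.25, adjusted p = 0.852), and -0.10 for reagent alone against untreated control (SE 0.25, adjusted p = 0.858). Without DPPA3 mRNA replicate 2, its highest library, the first of these values was 0.33.

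PSMB9, the counterpart of PSMB6, was covered by few reads. Its counts were 26, 28 and 18 in DPPA3 mRNA replicates 1, 2 and 3, 2, 7 and 30 with reagent alone and 13, 8 and 13 in untreated control. In CPM these were 1.96, 2.53 and 1.53, against 0.498, 0.629 and 2.36 and against 2.10, 0.866 and 1.27. Reagent alone replicate 3 therefore sat inside the transfected range, while replicates 1 and 2 of that group were the lowest of the 9 libraries. The log2 fold change against reagent alone was 0.68 with a wide error (SE 0.65, 95% interval -0.73 to 2.08, adjusted p = 1), and leaving out reagent alone replicate 3 moved it to 1.77 (adjusted p = 1).

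PSMB10, the counterpart of PSMB7, had the smallest fitted difference of the immune subunits in both comparisons of the transfected cells. It had 19.6, 21.7 and 17.2 CPM in the DPPA3 mRNA group, 13.9, 17.2 and 19.1 CPM with reagent alone and 22.7, 15.2 and 16.0 CPM in untreated control. The 3 groups overlapped, and the highest library was untreated control replicate 1. Its log2 fold change was 0.21 against reagent alone (SE 0.23, 95% interval -0.29 to 0.70, adjusted p = 1) and 0.12 against untreated control (SE 0.23, adjusted p = 0.909).

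PSME1, which encodes the alpha subunit of the PA28 cap, had 123, 160.4 and 131 CPM in the DPPA3 mRNA group. It had 85.7, 109.7 and 137 CPM with reagent alone and 62.4, 125 and 94.9 CPM in untreated control. The transfected libraries were mostly the higher ones, but reagent alone replicate 3 lay above 2 of them and untreated control replicate 2 above 1. By replicate number, PSME1 was above its untreated library in 3 of 3 pairs (log2 differences 0.98, 0.36 and 0.46), as were 19.3% of all genes, and above its reagent alone library in 2 of 3. Relative to the untreated cells, its log2 fold change was 0.55 (SE 0.24, 95% interval 0.04 to 1.06), a fold of 1.47, and the adjusted p was 0.852. Without untreated control replicate 1, the lowest library, the value was 0.34 (adjusted p = 1). Against reagent alone it was 0.32 (SE 0.24, adjusted p = 1).

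PSME2, the beta subunit of the same cap, had 16.3, 25.9 and 18.7 CPM in the DPPA3 mRNA group, 18.2, 12.5 and 17.0 CPM with reagent alone and 10.6, 12.7 and 21.9 CPM in untreated control. DPPA3 mRNA replicate 2 was the highest library, and replicate 3 also lay above all 3 reagent alone libraries. Replicates 1 and 3 lay within the untreated range, and replicate 1 within the reagent alone range too. The log2 fold change was 0.36 against reagent alone (SE 0.30, 95% interval -0.28 to 0.998, adjusted p = 1) and 0.42 against untreated control (SE 0.29, adjusted p = 0.852). Without DPPA3 mRNA replicate 2 these values were 0.15 and 0.21, without reagent alone replicate 2 the first was 0.21, and without untreated control replicates 1 and 3 in turn the second was 0.23 and 0.80. PSME1 and PSME2 pair in 1 complex, yet their reads did not keep a fixed ratio. PSME1 reads were between 433% and 986% of PSME2 reads in untreated control, between 471% and 878% with reagent alone and between 619% and 757% with DPPA3 mRNA.

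**Figure D2:**
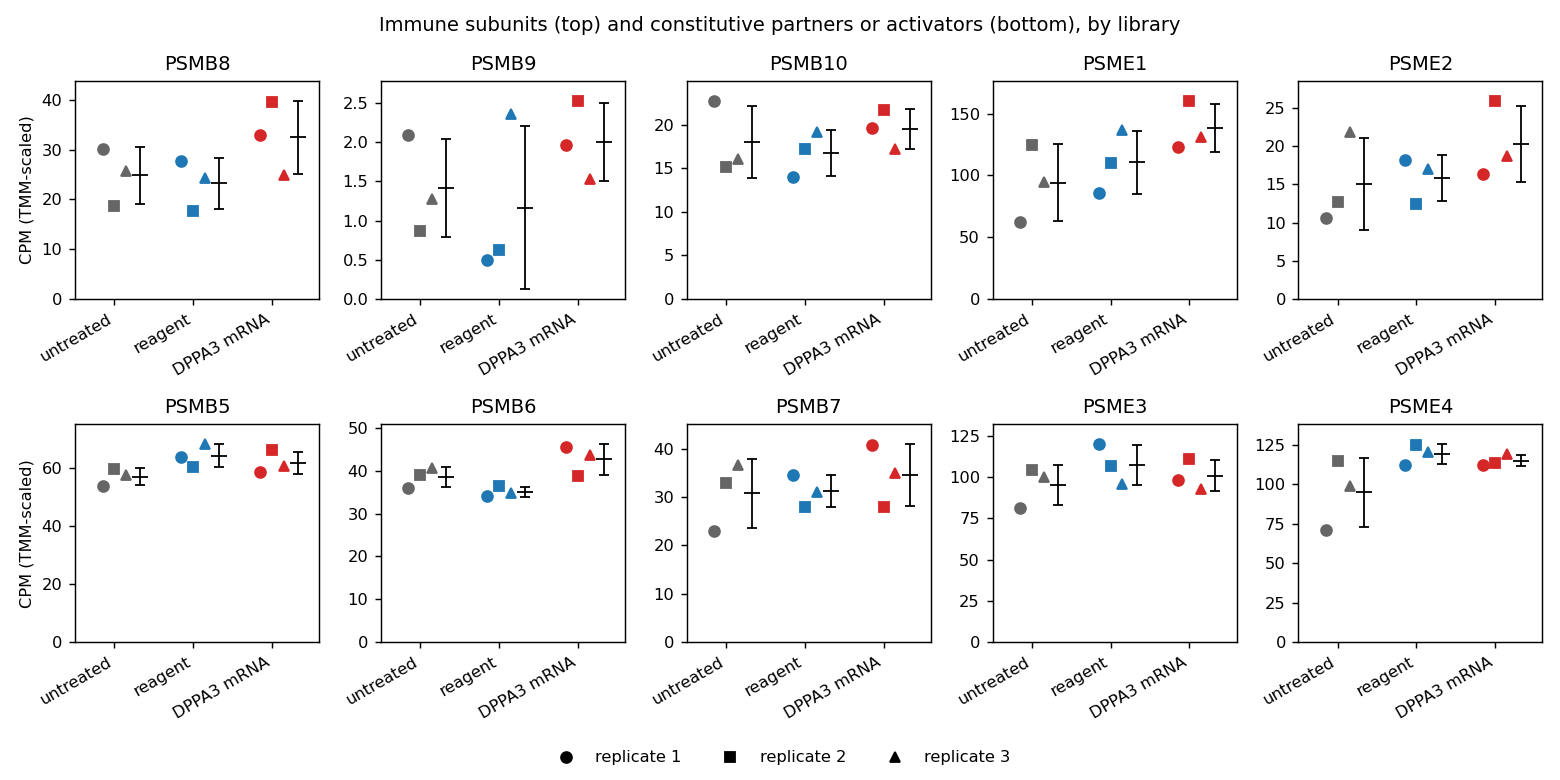
CPM (vertical axes, each from 0) of the 5 immune subunits in the top row and of PSMB5, PSMB6, PSMB7, PSME3 and PSME4 in the bottom row, with 1 marker per library shaped by replicate number and the mean ± SD of 3 libraries beside each group. In the top row DPPA3 mRNA replicate 2 (square) is the highest of the 9 libraries for PSMB8, PSMB9, PSME1 and PSME2, and the groups overlap in every panel of that row.

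DPPA3 mRNA replicate 2 stood highest of the 9 libraries for 4 of the 5 immune subunits. The same library was highest for 9 of the 41 others and for 11.2% of all genes tested. It also had the highest level of a list of 29 interferon-stimulated genes, with a mean log2(CPM + 0.5) of 6.64, against 3.56 and 4.46 in DPPA3 mRNA replicates 1 and 3. That mean was 2.54 to 3.31 with reagent alone and 2.62 to 2.86 in untreated control. The same mean for the 5 immune subunits was 4.34, 4.69 and 4.22 in DPPA3 mRNA replicates 1, 2 and 3. Replicates 1 and 3 thus stood in opposite order for the 2 lists. The part of the interferon response in the immune subunits' values was not tested. Leaving DPPA3 mRNA replicate 2 out brought the median of the 5 from 0.36 to 0.20 against reagent alone and from 0.42 to 0.22 against untreated control, with 0 subunits called.

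The reads of the 5 immune subunits, as a share of all reads on the 48 genes, were 7.62%, 9.60% and 7.71% with DPPA3 mRNA. They were 5.94%, 6.47% and 7.58% with reagent alone and 6.20%, 6.87% and 6.61% in untreated control. The means were 8.31 ± 1.12%, 6.66 ± 0.84% and 6.56 ± 0.34% (SD, n = 3 each). Every transfected library was above every other one, by a margin of 7.62% to 7.58% at the closest. PSME1 alone gave between 48.7% and 72.5% of these reads. Without it the share of the other 4 was 2.78%, 3.44% and 2.48% with DPPA3 mRNA, 2.45%, 1.97% and 2.39% with reagent alone and 3.18%, 1.89% and 2.69% in untreated control. The transfected libraries then lay above all 3 reagent alone libraries, while untreated control replicate 1 exceeded 2 of them and untreated control replicate 3 exceeded 1. On a scale that weights genes equally, the mean log2(CPM + 0.5) of the 5 minus that of the 41 others was -1.11, -0.82 and -1.21 with DPPA3 mRNA. It was -1.58, -1.63 and -1.20 with reagent alone and -0.92, -1.58 and -1.22 in untreated control, so the groups overlapped on this scale.

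Each immune catalytic subunit was also set against the constitutive subunit whose place it takes, again only between libraries. PSMB8 reads were 56.2%, 59.8% and 41.0% of PSMB5 reads with DPPA3 mRNA, 43.2%, 29.3% and 35.6% with reagent alone and 56.0%, 31.4% and 44.6% in untreated control. The transfected mean of 52.4 ± 9.97% was above the reagent alone mean of 36.0 ± 6.97% (SD, n = 3), but DPPA3 mRNA replicate 3 fell below reagent alone replicate 1. PSMB9 reads were between 3.50% and 6.54% of PSMB6 reads with DPPA3 mRNA, 1.46% and 6.80% with reagent alone and 2.22% and 5.83% in untreated control. PSMB10 reads were between 48.1% and 77.4% of PSMB7 reads with DPPA3 mRNA, 40.3% and 61.8% with reagent alone and 43.9% and 99.3% in untreated control. Neither of these last pairs separated the groups.

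PSMB5, the constitutive catalytic subunit with chymotrypsin-like activity, was among the steadiest members. It had 58.5, 66.1 and 60.6 CPM in the DPPA3 mRNA group, 64.0, 60.5 and 68.3 CPM with reagent alone and 53.8, 59.5 and 57.6 CPM in untreated control. All 3 reagent alone libraries lay above the untreated ones, by a log2 fold change of 0.17 (SE 0.15, adjusted p = 0.598), and the transfected libraries overlapped both groups. PSMB6, with caspase-like activity, had 45.5, 38.7 and 43.7 CPM in the DPPA3 mRNA group, 34.1, 36.4 and 34.7 CPM with reagent alone and 35.9, 39.1 and 40.6 CPM in untreated control. The transfected libraries did not overlap those with reagent alone (log2 fold change 0.28, SE 0.16, 95% interval -0.07 to 0.63, adjusted p = 1), but overlapped the untreated ones. PSMB7, with trypsin-like activity, had 40.7, 28.0 and 35.0 CPM in the DPPA3 mRNA group, 34.6, 28.0 and 31.0 CPM with reagent alone and 22.9, 32.8 and 36.6 CPM in untreated control, and its groups overlapped throughout.

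Counting the members whose groups did not overlap gave few for the transfected cells. Against reagent alone these were PSMB6 and PSMC3, an ATPase of the regulatory particle, among the higher ones (2 of 41 others, where 4.91% of all genes had every library higher). The chaperone PSMG1 was the only one lower (1 of 41, where 3.99% of all genes were). Against untreated control 3 of the 41 were higher in every library (PSMA6, PSMB1 and PSMD7, background 4.24%) and PSMC1 was lower (background 3.86%). In both comparisons 0 of the 5 immune subunits separated. Without untreated control replicate 1, PSMB9 and PSMB10 did separate from the untreated cells (2 of 5, where the background was then 7.63%). Of the 41 others, 5 were then higher and 3 lower, beside 7.63% and 7.54% of all genes. Without reagent alone replicate 1, PSMB8 separated from reagent alone (1 of 5, background 9.96%). Of the 41 others, 5 were higher and 5 lower there, beside 9.96% and 8.93% of all genes. Without DPPA3 mRNA replicate 2, 0 of the 5 immune subunits separated from either group. With that library left out, 6 of the 41 others were higher than reagent alone in every library and 7 were lower, beside 12.6% and 12.8% of all genes.

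Reagent alone against untreated control separated more of the constitutive subunits. In 8 of the 41 every reagent alone library was higher, beside 6.92% of all genes. They were the alpha ring subunits PSMA4 and PSMA6, the beta ring subunits PSMB1, PSMB3 and PSMB5, and PSMD7, PSMD8 and PSMD14 of the lid of the regulatory particle. PSMG3, an assembly chaperone, was lower in every one, beside 7.21% of all genes. Without untreated control replicate 1 the counts were 9 and 3 of 41, beside 9.17% and 10.2% of all genes. Without reagent alone replicate 1 they were 12 and 2, beside 12.5% and 12.7%. Taken by replicate number, 13 of the 41 were higher in every DPPA3 mRNA library than in its untreated counterpart (31.7%, beside 19.3% of all genes). For reagent alone they numbered 14 (34.1%, beside 19.9%), and between DPPA3 mRNA and reagent alone 6 (14.6%, beside 15.0%). Of the 5 immune subunits 1, 0 and 1 were higher in every pair of these comparisons. The subunits that separated were picked out by the separation itself and 0 of them passed the test.

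The alpha ring held the widest fitted differences from untreated control among the constitutive subunits, though not between the transfected and the reagent alone cells. PSMA4 had 9.19, 29.0 and 15.9 CPM in untreated control, 30.9, 38.6 and 33.1 CPM with reagent alone and 20.9, 44.6 and 26.2 CPM with DPPA3 mRNA. Every reagent alone library exceeded every untreated one, by a log2 fold change of 0.91 (SE 0.36, 95% interval 0.13 to 1.70, adjusted p = 0.466), and the transfected libraries overlapped the untreated ones. Without untreated control replicate 2, the highest of its group, this value was 1.43, and without untreated control replicate 1, the lowest, it was 0.62. The smallest adjusted p of PSMA4 in any alternative was 0.0556, with limma voom. PSMA3 had 6.28, 38.1 and 23.1 CPM in untreated control and 28.6, 51.2 and 33.1 CPM with DPPA3 mRNA. The groups overlapped, and the log2 fold change between them was 0.73 (SE 0.43), which became 0.30 without untreated control replicate 1. PSMA6 had 15.2, 20.6 and 19.5 CPM in untreated control, against 23.3, 31.5 and 22.0 CPM with DPPA3 mRNA, which did not overlap (log2 fold change 0.47, SE 0.22, adjusted p = 0.852). PSMA2 had a log2 fold change of 0.28 against reagent alone (SE 0.24, adjusted p = 1). Across the ring, the median of the 7 was 0.000 between the transfected and the reagent alone cells. It was 0.27 when either of these groups was set against untreated control.

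In the beta ring, the 7 constitutive subunits had medians of 0.001, 0.16 and 0.17 in the same order of comparisons. PSMB1, a structural subunit of the ring, had 56.9, 71.2 and 72.7 CPM in untreated control. It had 75.9, 82.9 and 85.9 CPM with reagent alone and 76.6, 85.0 and 80.9 CPM with DPPA3 mRNA. The untreated libraries were the lowest of the 9, with a log2 fold change of 0.29 for reagent alone (SE 0.15, adjusted p = 0.469) and 0.27 for DPPA3 mRNA (SE 0.15, adjusted p = 0.852). The 2 treated groups overlapped each other.

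Among the 6 ATPases of the regulatory particle, medians were 0.015, 0.06 and 0.04, and no ATPase had an unadjusted p under 0.05 in any comparison. PSMC1 had 57.5, 54.8 and 60.1 CPM in the DPPA3 mRNA group, 71.96, 58.6 and 69.4 CPM with reagent alone and 78.2, 61.7 and 66.1 CPM in untreated control. All 3 transfected libraries were below the untreated ones, with a log2 fold change of -0.26 (SE 0.16, adjusted p = 0.852), while DPPA3 mRNA replicate 3 overlapped the reagent alone group (log2 fold change -0.21, SE 0.16, adjusted p = 1). PSMC3 had 102, 87.4 and 96.0 CPM in the DPPA3 mRNA group, 82.4, 85.0 and 86.7 CPM with reagent alone and 110.5, 97.1 and 84.0 CPM in untreated control. It separated from reagent alone by a log2 fold change of 0.17 (SE 0.15, adjusted p = 1), and not from untreated control.

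Of the 14 PSMD genes, 10 had a log2 fold change below 0 for DPPA3 mRNA against reagent alone (median -0.10), 4 were below 0 for the transfected against the untreated cells (median 0.11) and 3 between reagent alone and untreated control (median 0.20). PSMD7, a lid subunit that partners the deubiquitinase PSMD14, had 24.5, 33.3 and 28.4 CPM in untreated control, 49.1, 43.0 and 35.5 CPM with reagent alone and 38.2, 34.8 and 41.3 CPM with DPPA3 mRNA. Both treated groups lay wholly above the untreated one. The log2 fold change was 0.56 for reagent alone (SE 0.19, 95% interval 0.14 to 0.97, adjusted p = 0.466) and 0.40 for DPPA3 mRNA (SE 0.19, adjusted p = 0.852). PSMD14 itself had 18.1, 38.5 and 31.0 CPM in untreated control, 38.6, 43.6 and 38.8 CPM with reagent alone and 32.4, 42.8 and 39.0 CPM with DPPA3 mRNA. Its reagent alone libraries were higher than the untreated ones by a narrow margin and a log2 fold change of 0.46 (SE 0.24, adjusted p = 0.469), which was 0.23 without untreated control replicate 1 and 0.71 without untreated control replicate 2. PSMD12, another lid subunit, ran between 21.7 and 43.4 CPM in the transfected libraries, which overlapped the 37.8 to 53.3 CPM of reagent alone (log2 fold change -0.46, SE 0.34, adjusted p = 1). With transfected library 2 left out that value was -0.74, and with library 1 left out it was -0.25. PSMD5, known as a chaperone of the regulatory particle, had a log2 fold change of 0.61 for reagent alone against untreated control (SE 0.30, adjusted p = 0.466), and 0.30 without untreated control replicate 1.

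The other activators and the inhibitor did not share one pattern. PSME3, which forms a nuclear cap, had 98.3, 111 and 92.9 CPM in the DPPA3 mRNA group, 120.0, 106.7 and 95.6 CPM with reagent alone and 81.2, 104 and 99.7 CPM in untreated control. PSME4, a large activator with a known part in sperm formation, had 112, 113 and 119 CPM in the DPPA3 mRNA group, 112, 125 and 121 CPM with reagent alone and 71.1, 115 and 98.8 CPM in untreated control. Both overlapped between groups, with log2 fold changes of -0.09 (SE 0.16) and -0.05 (SE 0.17) against reagent alone, beside 0.32 for PSME1 and 0.36 for PSME2. PSMF1, which encodes the proteasome inhibitor PI31, had 18.1, 32.1 and 19.6 CPM in the DPPA3 mRNA group, 20.4, 14.3 and 14.5 CPM with reagent alone and 20.9, 16.0 and 21.0 CPM in untreated control. DPPA3 mRNA replicate 2 was again the highest library. The log2 fold change against reagent alone was 0.52 (SE 0.27, 95% interval -0.05 to 1.09, adjusted p = 1), the smallest p of any subunit in that comparison, and 0.22 without that library.

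The 4 assembly chaperones help to build the core of the proteasome. Of these, PSMG1 and PSMG3 had fitted values of opposite sign in each comparison of the reagent alone cells, and neither passed the test. PSMG1 had 27.6, 24.2 and 23.0 CPM in the DPPA3 mRNA group, 36.4, 27.9 and 37.3 CPM with reagent alone and 16.3, 30.6 and 24.9 CPM in untreated control. The transfected libraries lay below all reagent alone libraries (log2 fold change -0.44, SE 0.24, adjusted p = 1), within the untreated range. For reagent alone against untreated control the value was 0.49 (SE 0.24, adjusted p = 0.466). PSMG3 had 24.1, 20.3 and 24.6 CPM in the DPPA3 mRNA group, 13.2, 17.7 and 20.6 CPM with reagent alone and 26.3, 20.7 and 20.7 CPM in untreated control. It overlapped between the treated groups by 1 library (log2 fold change 0.41, SE 0.22, adjusted p = 1).

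Members tied to other tissues were close to absent. PSMA8, an alpha subunit of the testis, had 1 count in all 9 libraries. PSMB11, the catalytic subunit of the thymus, had 5, 0 and 0 counts in untreated control, 0, 3 and 1 with reagent alone and 5, 0 and 3 with DPPA3 mRNA. In the RefSeq annotation of assembly ARS-UCD2.0 its span overlaps that of PSMB5, and whether the counting used strand is not given in the sources used here. With tRNA genes not counted, the same table lists an overlapping gene for 13 of the 48 members, so some of their reads may be shared. Among them are LCAT for PSMB10, EMC9 for PSME1, PTPN2 for PSMG2 and ATXN7 for PSMD6.

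**Figure D3:**
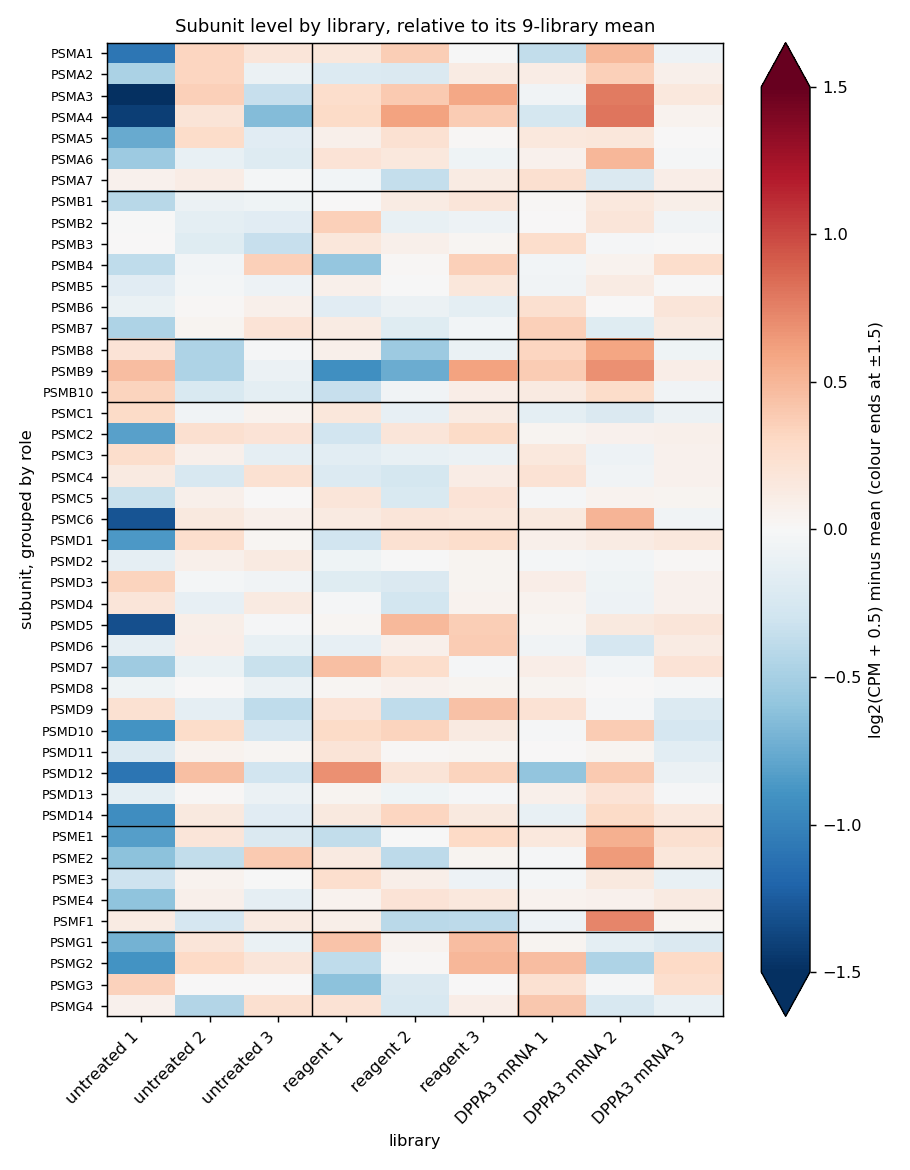
Level of each tested subunit in each library as log2(CPM + 0.5) minus its mean over the 9 libraries, with subunits in rows by role and libraries in columns, blue below the mean, red above it and colours ending at 1.5 either way. The first column, untreated control replicate 1, is the bluest, most deeply for PSMA3 and PSMA4, and lies above the mean for PSMB8, PSMB9 and PSMB10.

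Untreated control replicate 1 stood apart from the other untreated libraries, and every comparison with untreated control rests on it in part. It was the lowest of the 9 libraries for 27 of the 46 tested subunits (58.7%), as against 31.3% of all genes tested, and it was also the highest for 28.8% of all genes. Its level was more than 2-fold below the mean of the other untreated libraries in 9 of the 41 others (22.0%), beside 13.1% of all genes. These 9, named after their values were seen, were PSMA1, PSMA3 and PSMA4 of the alpha ring, the ATPases PSMC2 and PSMC6, PSMD1, PSMD5 and PSMD12, and the chaperone PSMG2. The immune catalytic subunits went the other way there, with a median log2 difference of 0.53, against -0.83 for the alpha ring, while PSME1 and PSME2 were low in it (median -0.74). The 48 genes took 0.176% of its counts, as against 0.244% to 0.276% in the other 8 libraries. Without it, the median of the 41 others against untreated control was 0.07 for DPPA3 mRNA and 0.06 for reagent alone.

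The subunits differed widely in how steady they were. The coefficient of variation over the 9 libraries had a median of 18.7% for the 46 tested subunits and 24.8% for all genes tested. The constitutive beta ring had a median of 12.3%, the ATPases 12.7%, the PSMD genes 17.3%, the alpha ring 20.2% and the 5 immune subunits 25.9%. The steadiest was PSMD8 of the lid, from 57.8 to 64.4 CPM (3.60%), followed by PSMD2, a scaffold of the regulatory particle (5.63%), and PSMB5 (7.34%). The most variable were PSMB9 (49.6%), PSMA4 (40.0%) and PSMA3 (39.2%), of which PSMB9 had at most 30 counts in a library. These values mix counting error, replicate spread and any difference between groups.

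The genes that handle proteasome products for MHC class I had mostly fitted differences above 0 in the transfected cells. Of 11 genes of peptide trimming, transport and loading, 0 were called in any comparison by edgeR, DESeq2 or limma voom, and at an unadjusted p under 0.05 edgeR had 1, 3 and 0, each of them higher, beside 1.27%, 2.09% and 4.23% of all genes. Fitted values were above 0 in 9, 10 and 7 of the 11, beside 50.4%, 50.2% and 49.2% of all genes. The median log2 fold change of the transfected cells was 0.29 relative to reagent alone and 0.25 relative to untreated control. It was 0.19 between reagent alone and untreated control. TAP1, a subunit of the peptide transporter that lies between PSMB8 and PSMB9 in that RefSeq assembly, had 14.7, 19.5 and 10.4 CPM in the DPPA3 mRNA group, 8.47, 10.6 and 8.04 CPM with reagent alone and 17.1, 9.85 and 7.82 CPM in untreated control. It overlapped by 1 library with reagent alone (log2 fold change 0.71, SE 0.32, adjusted p = 1). ERAP2, an aminopeptidase that trims peptides, had a log2 fold change of 0.64 against reagent alone (SE 0.30, adjusted p = 1) and 0.83 against untreated control (SE 0.30, adjusted p = 0.852). ERAP1, its relative, had 0.41 (adjusted p = 1) and 0.63 (adjusted p = 0.852). B2M, the light chain of MHC class I, had 21.6, 52.3 and 20.7 CPM in the DPPA3 mRNA group, 35.9, 24.3 and 13.0 CPM with reagent alone and 4.83, 26.6 and 10.7 CPM in untreated control, with overlap throughout. Its log2 fold change against untreated control was the largest of the 11, at 1.15 (SE 0.53, adjusted p = 0.852). It was 0.75 for reagent alone against untreated control (SE 0.54, adjusted p = 0.532) and 0.40 for DPPA3 mRNA against reagent alone (SE 0.53).

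Interferon-stimulated genes gave far larger differences than the immune subunits did. Of 33 listed, 29 were tested, and their median log2 fold change in the transfected cells was 2.33 relative to reagent alone and 2.49 relative to untreated control. It was 0.16 between reagent alone and untreated control. IFITM1, a membrane protein that restricts virus entry, was the 1 gene of the list called, against untreated control (log2 fold change 2.77, SE 0.38, adjusted p = 0.0372), with 0 called in the other comparisons. With DPPA3 left out of the library sizes and the test, 0 genes were called against untreated control, so IFITM1 was not called there. At an unadjusted p under 0.05, 26, 27 and 0 of the 29 were higher in the 3 comparisons, beside 1.27%, 2.09% and 4.23% of all genes. DESeq2 called 4, 3 and 0 of them, where it called 9, 10 and 2 genes in all. Limma voom called 0, 1 and 0, of 1, 4 and 2 genes in all. The list was chosen with earlier results of these data known, so its medians and counts are descriptions and not independent evidence. MX2, for 1, had 0 counts in untreated control, at most 2 with reagent alone and 19, 428 and 20 with DPPA3 mRNA. MX2 passed the count filter only through the transfected group. So did RSAD2, with at most 13 counts in any library outside that group, and XAF1, with at most 14. All of them are among the 26 and 27 genes counted above. IRF1, a transcription factor known to bind the promoters of immunoproteasome genes, had 13.6, 18.3 and 12.7 CPM in the DPPA3 mRNA group, 9.96, 6.83 and 8.74 CPM with reagent alone and 8.86, 7.69 and 9.58 CPM in untreated control. Every transfected library was above every other one, where 4.91% of all genes separated upward from reagent alone and 4.24% from untreated control. The log2 fold change of IRF1 was 0.82 against reagent alone (SE 0.26, adjusted p = 1) and 0.77 against untreated control (SE 0.26, adjusted p = 0.852). Of 12 genes listed as responsive to interferon gamma, IRF1 among them, 7 were tested, with medians of 0.23, 0.37 and -0.05. Fitted values were above 0 in 6, 4 and 3 of the 7. IRF1 was the only 1 of them with every transfected library higher, against either group. By edgeR, DESeq2 and limma voom 0 of the 7 were called, and 2, 1 and 0 were higher at an unadjusted p under 0.05 by edgeR.

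**Figure D4:**
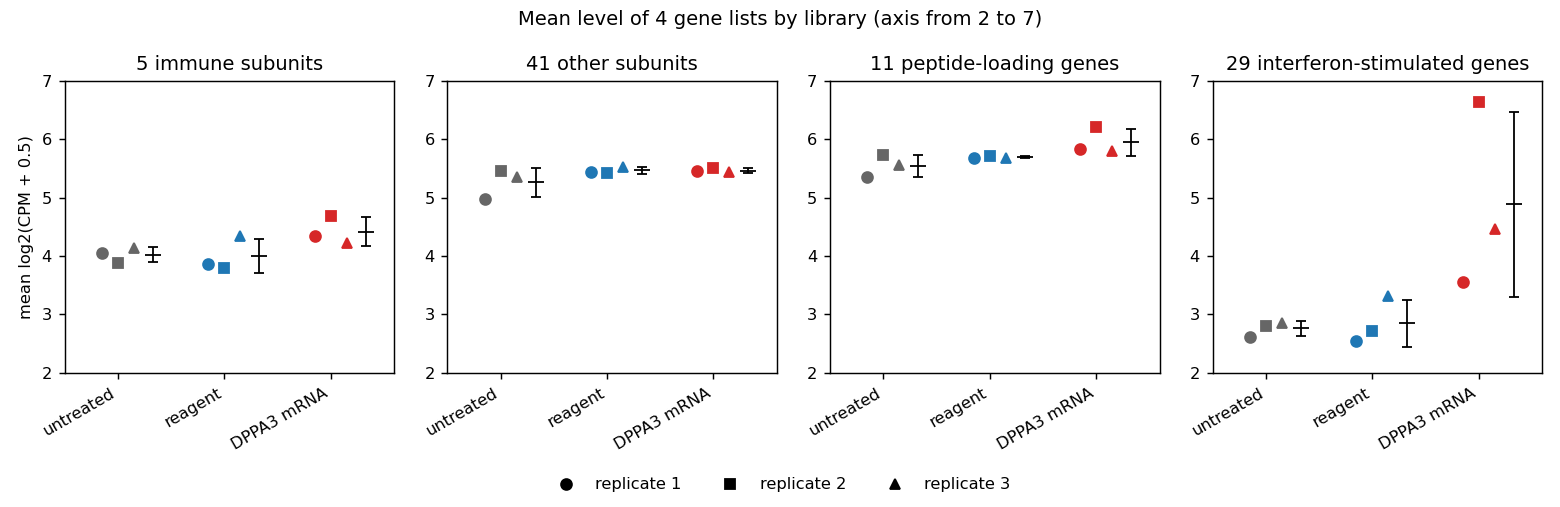
Mean log2(CPM + 0.5) of 4 gene lists (vertical axis, from 2 to 7) in each library, with markers shaped by replicate number and the mean ± SD of 3 libraries beside each group. The interferon-stimulated genes spread from 3.56 to 6.64 over the transfected libraries, while the immune subunits spread from 4.22 to 4.69 there and overlap with reagent alone replicate 3 at 4.34.

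Genes that assemble, regulate or supply the proteasome gave 0 calls by edgeR, DESeq2 and limma voom. Of 20 listed, 19 were tested, with medians of -0.03, 0.08 and 0.05. By edgeR 0, 0 and 1 had an unadjusted p under 0.05, beside 1.67%, 3.91% and 10.2% of all genes. POMP and UBQLN1 were lower in every transfected library than with reagent alone (2 of 19, beside 3.99% of all genes). UCHL5, a deubiquitinase of the regulatory particle, had 11.3, 19.5 and 13.1 CPM in untreated control and 21.2, 21.1 and 24.3 CPM with reagent alone, which did not overlap (log2 fold change 0.60, SE 0.24, adjusted p = 0.466). It was the 1 of 19 with every reagent alone library higher, beside 6.92% of all genes. TXNL1, a thioredoxin-like protein bound to the regulatory particle, had a log2 fold change of -0.37 against reagent alone (SE 0.20, adjusted p = 1).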

How the data were processed

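The 9 libraries were made from total RNA with a TRIzol extraction and an IDT xGen RNA kit, per the labels' protocols. The authors deposited raw read counts per gene symbol, and these counts were used as deposited. Trimmomatic, HISAT2, HTSeq and edgeR appear, with no role or version, in the submitters' processing notes. The genome build, the annotation and any use of strand were not given in the sources used here. All 48 members matched a RefSeq gene table of assembly ARS-UCD2.0, used only for names and neighbouring or overlapping genes, and no lengths were used.

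After filterByExpr had removed low counts, TMM factors were computed and 1 model with a term for group was fitted to all 9 libraries (glmQLFit and glmQLFTest of edgeR 4.0.16, under R 4.3.3). A Benjamini-Hochberg adjustment ran over the 14874 genes tested, with calls at an adjusted value under 0.05. The SE is the absolute log2 fold change over the square root of the F statistic. CPM use the TMM-scaled totals of the tested genes. Replicates differed by more than counting noise (chi-square per degree of freedom 13.7 to 65.0). A count of 0 allows up to 3 counts, 0.226 to 0.747 CPM by library, for counting error only.

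Named subunits were the 5 immune ones, PSMB5, PSMB6, PSMB7, PSMB11, PSME3, PSME4, PSMF1 and, in each comparison, the 6 others with the smallest p. Of further lists, up to 4 genes with the smallest p in each comparison were named. Outside this rule, MX2 and XAF1 were named for their counts and POMP and UBQLN1 for separation, after their values were seen. PSMD2, PSMD8 and others named for separation, spread or a low library were chosen after their values were seen. The members and lists were chosen with earlier results of these data known. The equal replicate numbers of 2 groups deviated together from their group means (correlations 0.104 to 0.378), so the numbers were taken to pair the libraries, from the data and not from the labels. The main model had no term for these numbers, so its SEs, intervals and adjusted p-values do not account for this pairing. Alternatives were DESeq2 1.42.0 (size factors, Wald test), no filter, limma 3.58.1 voom with quality weights, a replicate block, a fit of only the 6 libraries compared, removal of DPPA3 before scaling, and each library left out in turn. Leaving out untreated control replicate 1 and reagent alone replicate 1 together, and recounting separated groups without single libraries, were chosen after seeing the data. The scripts were tested on simulated data.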

Additional observations from a re-analysis of the deposited data

How the results depend on the processing

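In all 17 alternatives, 0 proteasome subunits were called in each comparison, and the smallest adjusted p of a named subunit in any of them was 0.809 (DPPA3 mRNA against reagent alone), 0.183 (DPPA3 mRNA against untreated control) and 0.0556 (reagent alone against untreated control). Of 17 named subunits, 17, 13 and 11 kept their sign in every alternative of the 3 comparisons. For DPPA3 mRNA against reagent alone the immune median ranged from 0.20 to 0.50 over the libraries left out, and the count of all genes called was 66 with no filter, 9 with DESeq2, 2 with the replicate block, 0 with DPPA3 left out and 1 to 20 with a library left out. For DPPA3 mRNA against untreated control that median ranged from 0.22 to 0.55, and genes called were 69 with no filter, 10 with DESeq2, 4 with limma voom, 7 with the block, 0 with DPPA3 left out and 1 to 26 with a library left out. Changes of sign here were, with limma voom, PSME2 at -0.032, PSMB7 at -0.040 and PSME3 at -0.019, with both smallest libraries left out PSME3 at -0.012, and with a library left out PSME3 (-0.012 to 0.15) and PSMF1 (-0.033 to 0.42). For reagent alone against untreated control genes called were 18 with no filter, 2 with DESeq2, 2 with limma voom, 1 with both smallest libraries left out and 0 to 1 with a library left out. The immune median there was 0.18 with both smallest left out and ranged from -0.19 to 0.18 with a library left out. Changes of sign were, with limma voom, PSMB10 at 0.10, PSME2 at -0.40 and PSMB7 at -0.22, and, with both smallest libraries left out, PSMB9 at 0.50, PSMB10 at 0.23, PSME2 at -0.22, PSMB7 at -0.22 and PSME3 at -0.002. With a library left out they were PSMB8 (-0.27 to 0.064), PSMB9 (-1.24 to 0.23), PSMB10 (-0.19 to 0.13), PSME2 (-0.12 to 0.44) and PSMB7 (-0.15 to 0.16). Leaving out 1 library moved the log2 fold change by over 1.5 times, or past 0, in 14, 16 and 13 of the 17 named subunits. The cause of these changes was not tested. Pairing by replicate number changed no call of a subunit; with the replicate block the immune medians were 0.38, 0.46 and -0.06 in the 3 comparisons. PSMB9 rests on 2 to 30 counts per library, and no test of what this depth can detect was run for it.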
